A study of Oreochromis niloticus with 6 samples.

Results

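The genes described here encode the proteins of the cytosolic ribosome in tilapia liver. They were chosen by name alone: every gene whose name begins with rpl or rps and a digit, with rplp, or with rpsa, in either case of letters, without the ribosomal S6 kinases. This gave 75 gene IDs with 78 transcripts, out of 26490 gene IDs with 33245 transcripts in the mRNA table. Of the 75, 42 encode proteins of the large subunit, 29 proteins of the small subunit and 4 proteins of the stalk on the large subunit.

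Livers came from juvenile male Nile tilapia (Oreochromis niloticus) of GIFT, a farmed line bred for growth, all of the genotype WT. One group ate a high-fat diet (HFD) with 18.5% lipid and the other a normal-fat diet (NFD) with 8% lipid, both for 56 days, and each diet has 3 libraries. The libraries were made from total RNA after removal of ribosomal RNA, and the labels' protocols say that RNA of 3 samples per group was mixed. They do not say whether each library is its own mixture, so p-values measure only the spread between libraries, which may be technical.

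A ribosome is built from ribosomal RNA and a set of small proteins, of which almost all are present in a single copy per particle. Cells therefore need these proteins in near-equal amounts, and in vertebrates their mRNAs share a pyrimidine-rich start through which the mTOR pathway controls their translation. Liver makes and exports much of the body's plasma protein and is rich in ribosomes. Roles named below are those known from yeast and human ribosomes.

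Values are FPKM as the authors deposited them, that is, sequenced fragments per transcript length and per library size. Transcripts were summed per gene ID. Summed over the mRNA table, libraries held 141024 to 170847 FPKM, and their depth in reads is unknown. A list of 16 hepatocyte markers matched 10 gene IDs, with fetub matched by both MSTRG.23000 and MSTRG.23003. Their summed level was 2471, 1508 and 2363 FPKM in HFD livers and 6424, 2736 and 5368 FPKM in NFD livers. Every HFD library lay below every NFD library in this sum, and its part in the results was not tested. The fibrinogen gene fgb, at 0.958, 1.18 and 1.03 FPKM in HFD livers and 3857, 0.835 and 3101 FPKM in NFD livers, made up much of the sum in NFD replicates 1 and 3. The separation of the diets in this sum rested on fgb. With fgb left out, the sum of NFD replicate 3 lies below those of HFD replicates 1 and 3, so the diets overlap. The marker ambp stood at 848, 771 and 809 FPKM in HFD livers and at 990, 721 and 849 FPKM in NFD livers, with the diets overlapping. Exocrine pancreas, which in many bony fish lies within the liver, was represented by 8 of 16 listed markers. Their summed level was 6680, 4603 and 17776 FPKM in HFD livers and 16529, 7849 and 3921 FPKM in NFD livers. None of these 8 was at 0 in any library. Pancreatic transcripts were thus most abundant in HFD replicate 3 and NFD replicate 1. The erythrocyte gene alas2 was listed at 0 in all 6 libraries, and slc4a1a, listed together with ubtf, lay between 0.085 and 1.49 FPKM. The summed endothelial markers lay between 3.91 and 14.4 FPKM. Leukocyte markers summed to between 266 and 835 FPKM, most of it from LYZ at 260 to 829 FPKM. Bile duct markers summed to between 214 and 282 FPKM, most of it from krt8. The only other one found, epcam, lay between 2.21 and 9.74 FPKM, so the sum says little beyond the level of krt8. In bulk tissue, fewer cells of a type and less RNA per cell cannot be told apart.

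Ribosomal protein genes were among the most abundant transcripts of the liver. Of the 75 members, 23 were among the 100 genes with the highest mean FPKM. The mean over the 6 libraries was 500 FPKM or more for 8 members, between 100 and 500 for 33, between 10 and 100 for 20, between 1 and 10 for 7 and under 1 for 7. Together they held 11.1%, 9.01% and 9.60% of the summed FPKM in HFD livers and 7.09%, 9.62% and 10.6% in NFD livers. The mean share was 9.92% (SD 1.095, n = 3) for HFD and 9.11% (SD 1.81, n = 3) for NFD, and the diets overlapped.

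The most abundant member was rps18 (MSTRG.40726), a protein of the head of the small subunit, at 1538, 1049 and 1473 FPKM in HFD livers and 994, 1358 and 1222 FPKM in NFD livers. It was followed by rpl6, a protein of the large subunit, with a mean of 1054 FPKM over all libraries. Next came rpl27 with a mean of 698 FPKM and rpsa with 573 FPKM. rpsa encodes an outer protein of the small subunit that is also known as a laminin receptor. The mean was 550.3 FPKM for rpl23a, which lies at the mouth of the exit tunnel for the new peptide, 513 FPKM for rpl7 and 482 FPKM for rps10. In all of these the libraries of the diets overlapped. RPL7A, with a mean of 520.5 FPKM between rpl23a and rpl7, was the exception among the 10 highest.

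At the other end, 7 members had a mean under 1 FPKM. They were rps7, rpl11, rpl12, rps14, RPL3L and both gene IDs named for RPS19. rps7 had no estimate in any library. rpl11, which with rpl5 also binds the p53 regulator MDM2 in human cells, stood at 0.448 FPKM in HFD replicate 1 and at 0 elsewhere. rps14 lay between 0.0342 and 0.383 FPKM. Proteins of single copy per ribosome were thus represented by deposited values from 0 to a mean of 1272 FPKM. Transcript numbers run to 78588, and 25415 of them are in neither deposited table, so fragments given to those transcripts are missing from these values.

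Members were separated by their spread over the 6 libraries. The 10 whose highest library was 20 or more times the lowest, or that were at 0 in a library and reached 0.5 FPKM elsewhere, are called varying. Another 62 were under this limit and are called steady, rpl11 and rpl12 were too low to be placed, and rps7 had no estimate. This split uses the values themselves, over all libraries and without the diet. Just inside the limit were rps21 at 21.5-fold, rps15a at 83.7-fold and rpl18 at 204-fold, and just outside it were rps14 at 11.2-fold, RPL7A at 10.5-fold and RPL19 at 9.74-fold. Few members thus lay near 20-fold.

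**Figure D1:**
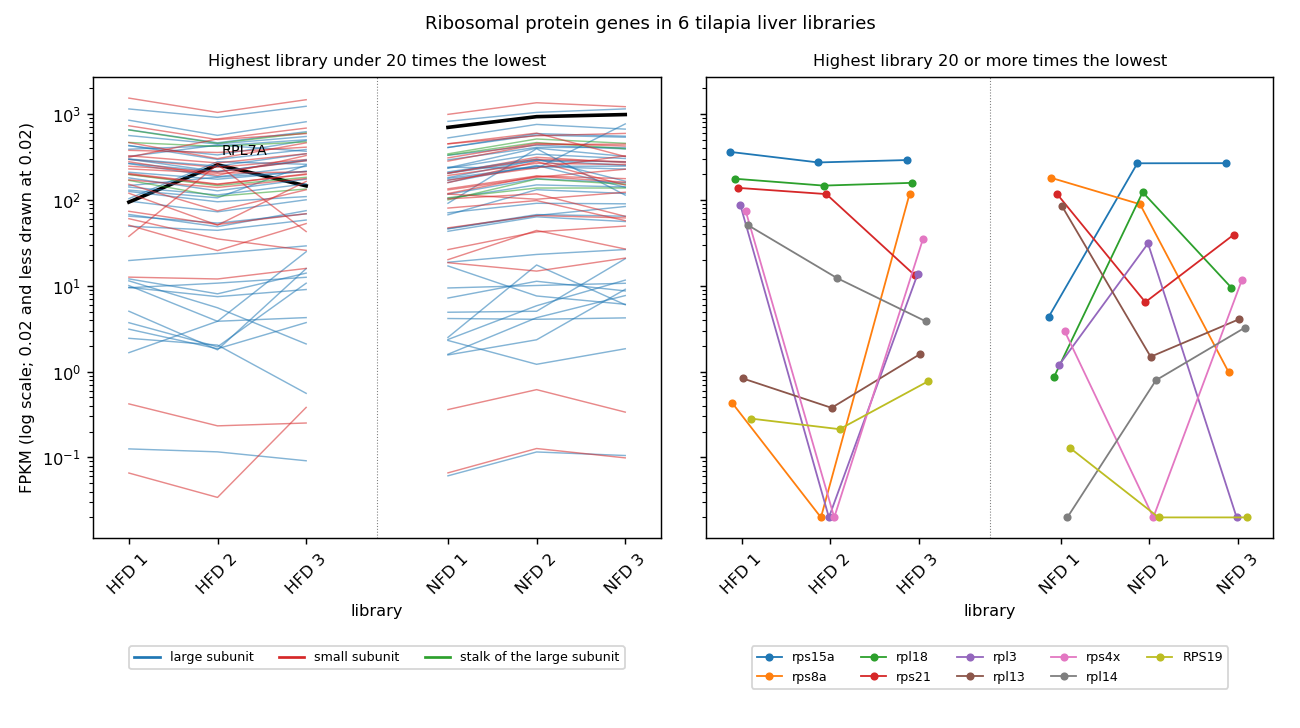
FPKM of each ribosomal protein gene (log scale) in the 3 HFD and 3 NFD libraries, with the 62 steady members on the left, coloured by ribosome part, and 9 of the 10 varying members on the right. Of the 59 tested steady members 41 are lowest in NFD replicate 1, while varying members are high and low in different libraries.

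Steady members moved together from library to library. Their median level was 171, 153 and 198 FPKM in HFD livers and 131, 190.5 and 158 FPKM in NFD livers, counted over the 59 that passed the filter on low values. NFD replicate 1 was the lowest library for 41 of these 59 and the highest for none. HFD replicate 3 was the highest for 20, HFD replicate 1 for 18, NFD replicate 2 for 11, NFD replicate 3 for 9 and HFD replicate 2 for 1. Relative to the geometric mean of the libraries this shared level was 1.04, 0.927 and 1.20 in HFD and 0.790, 1.15 and 0.956 in NFD, a range of 1.51-fold with the diets overlapping. Related gene lists, described below, were also under 1 in NFD replicate 1. There translation factors stood at 0.778, other mRNAs with a pyrimidine-rich start at 0.802 and mitochondrial ribosomal proteins at 0.897. Genes of mTOR signalling and ribosome-associated kinases stood at 0.925 and ribosome assembly factors at 0.955. Only translation factors had their lowest level there, and they stood at 0.801 in HFD replicate 1. The other lists were lowest in HFD replicate 2. There ribosome assembly factors stood at 0.748, other mRNAs with a pyrimidine-rich start at 0.788, mitochondrial ribosomal proteins at 0.826 and mTOR genes at 0.923.

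The ratio of highest to lowest library had a median of 1.68 among the 59 steady members, and of 2.19 among the 8312 of all tested genes that meet the same limit of 20-fold. Both are descriptions, since the limit itself uses this ratio. Dividing each value by the shared level of its library brought the median of the steady members to 1.45. Because that level is the median of these same 59 members, some narrowing is built in. By that measure 35 of the 59 stayed under 1.5-fold over all 6 libraries, 9 lay between 1.5 and 2, 3 between 2 and 3, and 12 above 3. rps6, the substrate of the S6 kinases, had a range of 1.19-fold by that measure. In HFD replicates 2 and 3 and NFD replicate 2 rps6 was itself the median that sets the shared level. Its closeness to that level is thus partly built in. Its values were 204, 153 and 198 FPKM in HFD livers and 135, 190.5 and 177 FPKM in NFD livers.

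**Figure D2:**
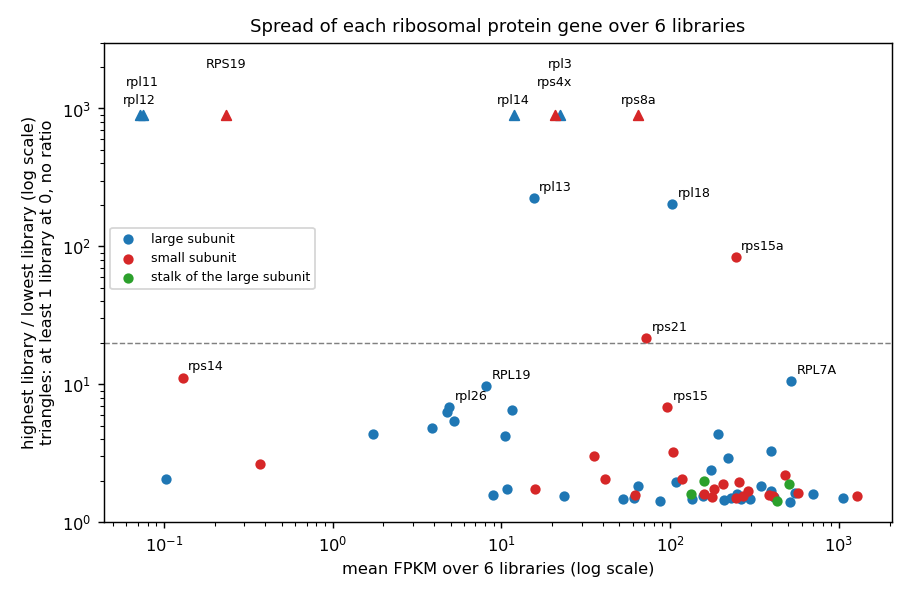
Ratio of the highest to the lowest library for each member against its mean FPKM, both on log scales, with the 20-fold limit dashed and members at 0 in a library drawn as triangles. Of the 59 tested steady members 40 lie under 2-fold, and rpl18 and rpl13 lie highest among those with a ratio.

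HFD livers were compared with NFD livers to see whether these mRNAs differ with dietary fat. Genes were tested with limma on log2(FPKM + 0.5) when at least 3 of the 6 libraries had 0.5 FPKM or more, which 68 of the 75 members and 9204 genes in all did. The 7 members left untested are those with a mean under 1 FPKM. No member passed an adjusted p of 0.05 (limma, Benjamini-Hochberg over all tested genes), and neither did any other gene, a background of 0%. At an unadjusted limma p under 0.05 there were 3 of 68 members, or 4.41%, against 6.02% of all tested genes. rpl14 and rpl18 were higher in HFD, against a background of 2.67% in that direction, and RPL7A was lower, against 3.35%. Libraries of the diets did not overlap for 4 members, or 5.88%, against 11.6% of all tested genes: rpl14, rpl18 and rps15a were higher in HFD, against a background of 5.48%, and RPL7A was lower, against 6.15%. Both shares were below the background. After division by the shared level of the steady members, the diets overlapped in rpl14 and rps15a and stayed apart in rpl18 and RPL7A. With each library centred on the steady members, 3 of 68 had an unadjusted p under 0.05, against 5.67% of all tested genes.

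Small differences leaned one way. Of the 68 members, 52 had a higher mean log2 level in HFD and 16 a lower one, which is 76.5% higher against 50.4% of all tested genes. The median difference was 0.11 on the log2 scale, against 0.00309 for all tested genes, and the median standard error of a member was 0.286. Of the 59 steady members, 57 lay within 0.5 of 0. The direction of the lean changed with the libraries left out. Without NFD replicate 1, in which the steady members stood lowest, 27 of 67 members were higher in HFD and the median was −0.05, against −0.06 for all tested genes. Without that library and HFD replicate 2, those with the lowest share of ribosomal protein transcripts, 46 of 67 were higher and the median was 0.08, against −0.04 for all tested genes. Without NFD replicate 1 and HFD replicate 3, those with the most pancreatic transcripts, 14 of 64 were higher and the median was −0.14, against −0.06 for all tested genes. The part of pancreatic tissue in these values was not tested.

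**Figure D3:**
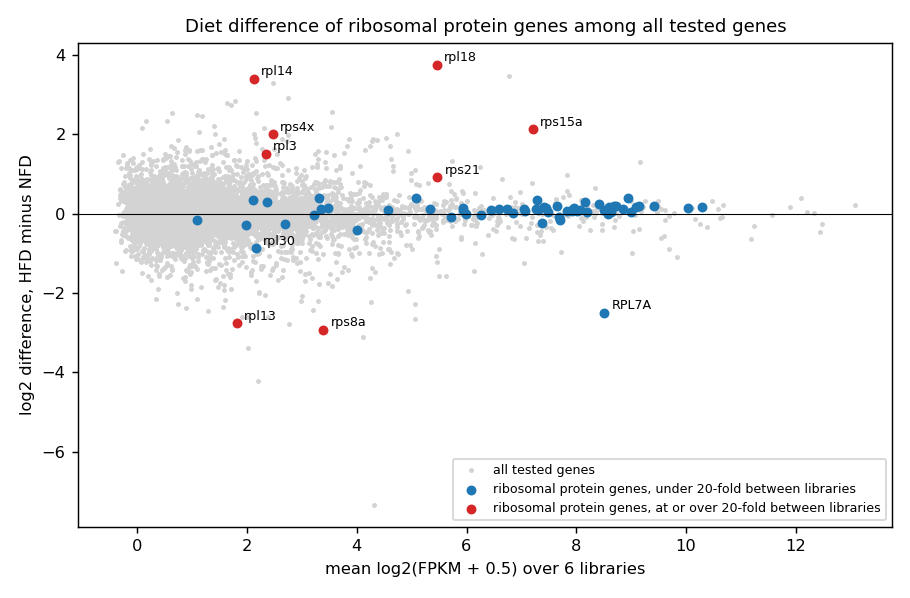
Difference in log2(FPKM + 0.5), HFD minus NFD, against the mean log2 level over 6 libraries, for tested genes in grey and tested members in colour. Steady members gather just above 0, RPL7A lies at −2.50, and the varying members scatter widely, with rps8a at −2.93 and rpl18 at 3.75.

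RPL7A (MSTRG.17121), a protein of the large subunit, had the smallest p of all members. It stood at 94.4, 257 and 146 FPKM in HFD livers and at 701, 935 and 989 FPKM in NFD livers. All 3 HFD libraries lay below all 3 NFD libraries, and the highest HFD value was well under the lowest NFD value. HFD livers averaged 166 ± 83.2 FPKM and NFD livers 875 ± 153 FPKM (SD, n = 3 each). The log2 difference was −2.50 ± 0.40 (SE), with a limma p of 0.000686 and a Benjamini-Hochberg adjusted p of 0.296. After division by the shared level of steady members the difference was −2.63. In FPKM as deposited RPL7A was the one steady member with groups apart. After the division other steady members were apart too, such as rpl10, rpl17 and rpl24, lower in HFD, and rplp2, higher in HFD. The share of all tested genes apart on that scale was not counted. The limma p of RPL7A was under 0.05 in all 19 alternative settings, where the adjusted limma p lay between 0.262 and 0.980. The other 58 steady members had differences between −0.87 and 0.40.

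In the large subunit, RPL7A included, 27 of 39 tested were higher in HFD and 12 lower, with a median of 0.09. rpl14 (MSTRG.33744) had 50.6, 12.3 and 3.86 FPKM in HFD livers and 0, 0.794 and 3.24 FPKM in NFD livers. The lowest HFD library lay just above the highest NFD library in FPKM. After division by the shared level of the steady members it lay below, at 3.23 against 3.39. The difference was 3.40 ± 1.07 (log2, SE), with a limma p of 0.0180 and an adjusted p of 0.742. Without NFD replicate 1 the p was 0.0616.

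rpl18 (MSTRG.18924), also of the large subunit, had 177, 147 and 158 FPKM in HFD livers and 0.868, 123 and 9.51 FPKM in NFD livers. The HFD libraries were close together, as was NFD replicate 2, and NFD replicates 1 and 3 were far below. The difference was 3.75 ± 1.51 (log2, SE), with a limma p of 0.0461 and an adjusted p of 0.826, and leaving out NFD replicate 1 gave 2.19 with a p of 0.0931. rpl13 (MSTRG.6473) went the other way in a single library. It had 0.832, 0.378 and 1.60 FPKM in HFD livers and 84.6, 1.49 and 4.09 FPKM in NFD livers, with a limma p of 0.0847.

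rpl3 (MSTRG.6820), whose protein reaches towards the peptidyl transferase centre, had 87.8, 0 and 13.6 FPKM in HFD livers and 1.20, 31.1 and 0 FPKM in NFD livers. High and low libraries occurred in both diets. rpl30 (MSTRG.8950) was steady at a low level, with 3.12, 1.85 and 3.73 FPKM in HFD livers and 2.37, 5.85 and 11.6 FPKM in NFD livers. Its difference of −0.87 ± 0.54 (log2, SE) had a limma p of 0.157, and the diets overlapped.

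In the small subunit 21 of 25 tested members were higher in HFD and 4 lower, with a median of 0.12. None had an unadjusted p under 0.05. rps15a (MSTRG.23417) had 364, 274 and 292 FPKM in HFD livers and 4.35, 268 and 268 FPKM in NFD livers. NFD replicate 1 alone was low, the other libraries being alike, and the difference of 2.13 ± 1.56 (log2, SE) had a limma p of 0.219.

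rps8a (MSTRG.15146) had 0.430, 0 and 118 FPKM in HFD livers and 181, 89.2 and 0.984 FPKM in NFD livers, and its limma p was 0.308. rps4x (MSTRG.31597) had 75.1, 0 and 34.8 FPKM in HFD livers and 2.96, 0 and 11.7 FPKM in NFD livers. rps21 (MSTRG.11455) had 138, 117 and 13.2 FPKM in HFD livers and 119, 6.45 and 39.6 FPKM in NFD livers. In all of these the ranges of the diets overlapped. rps27l (MSTRG.4290), a paralog of RPS27 that p53 induces in human cells, had 12.6, 12.004 and 15.9 FPKM in HFD livers and 18.6, 14.8 and 21.0 FPKM in NFD livers. Its difference of −0.41 ± 0.22 (log2, SE) had a limma p of 0.111, and the highest HFD library lay above the lowest NFD library.

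**Figure D4:**
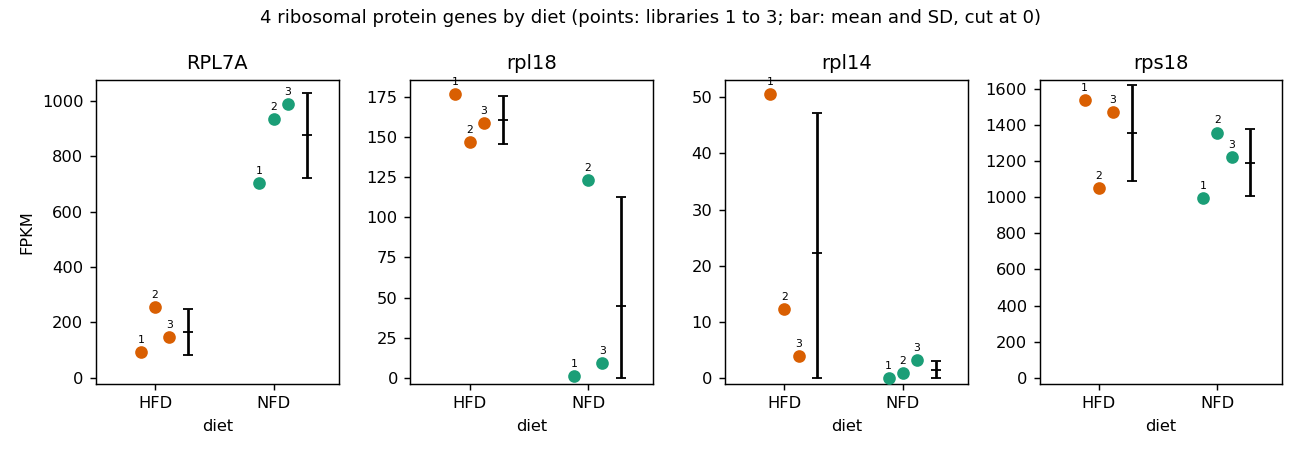
FPKM of RPL7A, rpl18, rpl14 and rps18 in the HFD libraries and in the NFD libraries (points, replicates 1 to 3), with the mean and SD (n = 3 each). RPL7A is lower in every HFD library, rpl18 and rpl14 are higher in every HFD library, and rps18 overlaps between diets. The spread is wide in NFD for rpl18 and in HFD for rpl14.

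The stalk recruits and activates the elongation factors. Its base rplp0 had 468, 421 and 475 FPKM in HFD livers and 334, 467 and 396 FPKM in NFD livers. rplp2 (MSTRG.23264) had 654, 457 and 604 FPKM in HFD livers and 345, 514 and 457 FPKM in NFD livers, and its copy rplp2l had 198, 147 and 184 FPKM in HFD livers and 100.2, 175 and 152 FPKM in NFD livers. In each of these NFD replicate 1 was the lowest library. The differences were 0.20, 0.39 ± 0.27 and 0.33 (log2), with limma p values of 0.407, 0.199 and 0.286. All 4 stalk genes, rplp1 included, were higher in HFD on the log2 scale, with a median of 0.27, and no varying member was a stalk gene.

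The 10 varying members were not high and low in the same libraries. Counting a library as holding a gene when it reached at least a twentieth of that gene's highest library, the 10 showed 9 distinct sets of libraries. The same 20-fold limit chose these genes, so each is short of it in at least 1 library by construction. The 10 include the RPS19 gene ID MSTRG.21209, whose highest library was only 0.772 FPKM. rps15a and rpl18 shared the set of all libraries but NFD replicate 1. This rests on the limit, since in NFD replicate 3 rps15a had 268 FPKM and rpl18 9.51 FPKM, just over a twentieth of its highest. Just under a twentieth of their highest were rps21 in NFD replicate 2, at 6.45 FPKM, and rpl13 in NFD replicate 3, at 4.09 FPKM. Of 30 pairs of gene and library in each diet, 22 were held in HFD and 13 in NFD. Among the 10 genes 8 were held in more HFD than NFD libraries, and 2, rps8a and rpl13, in more NFD than HFD libraries. Of the 9 that were tested, 7 were held in more HFD libraries and 2 in more NFD libraries, while among all 892 varying tested genes 48.5% were held in more HFD libraries and 36.2% in more NFD libraries. These 9 were held in 19 of 27 pairs in HFD and 12 of 27 in NFD, against 77.02% in HFD and 72.0% in NFD for all varying tested genes. With so few members these counts are a description only. Summed, all 10 varying members reached 740 ± 145 FPKM in HFD livers and 418 ± 93.1 FPKM in NFD livers (SD, n = 3 each). Much of that gap came from rps15a, with means of 310 FPKM in HFD and 180 FPKM in NFD, and rpl18, with 161 and 44.5 FPKM. rps15a was low in NFD replicate 1 alone, and the means of rps8a and rpl13 went the other way. Differences of the 9 tested had a median of 1.99 on the log2 scale, and their median standard error was 1.56. Varying genes were 13.2% of the tested members and 9.69% of all tested genes. At a mean of 10 FPKM or more they were 9 of 61 members, or 14.8%, and 9.03% of all such genes. In their highest library rps15a, rps8a and rpl18 reached 2.12, 1.38 and 1.03 times the median of the steady members there.

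Some proteins were represented by several gene IDs. Reads of near-identical copies can be split between them, so these values are uncertain. RPL5 had a gene ID (MSTRG.9152) at 97.0, 72.7 and 101 FPKM in HFD livers and 70.9, 91.5 and 90.2 FPKM in NFD livers. The other (MSTRG.1126) stood at 12.04, 8.06 and 14.1 FPKM in HFD livers and 9.43, 10.1 and 10.7 FPKM in NFD livers. The first copy was the higher in every library, and the diets overlapped in both.

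rpl19 had 104, 279 and 261 FPKM in HFD livers and 212, 300.4 and 166 FPKM in NFD livers. The gene ID named RPL19 had 5.05, 1.79 and 15.8 FPKM in HFD livers and 2.51, 17.5 and 6.01 FPKM in NFD livers. The capital-letter name was far lower and varied more. rpl22 averaged 108 FPKM and its paralog rpl22l1 23.5 FPKM. rpl7l1, which in yeast has a relative that acts in assembly of the large subunit, averaged 1.74 FPKM beside the 513 FPKM of rpl7. RPL3L, restricted to muscle in mammals, averaged 0.103 FPKM beside 22.3 FPKM for rpl3.

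Of the 75 gene IDs 3 had 2 transcripts in the mRNA table. For rpl23 and rps10 the second transcript was at 0 in all libraries. For RPL27A the leading transcript had 6.44, 8.90 and 9.41 FPKM in HFD livers and 3.53, 3.34 and 15.7 FPKM in NFD livers. Its other transcript had 3.05, 1.83 and 3.16 FPKM in HFD livers and 1.39, 1.71 and 5.01 FPKM in NFD livers. The same transcript led in every library.

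Rows with a member's gene ID were found in the lncRNA table for 6 members. The row MSTRG.10427.1, with the gene ID of rpl36a, had 231, 201 and 240 FPKM in HFD livers and 170.0, 283 and 215 FPKM in NFD livers. The rpl36a row of the mRNA table had 9.59, 7.47 and 9.05 FPKM in HFD livers and 7.19, 11.3 and 8.71 FPKM in NFD livers. The lncRNA row was 23.6 to 26.9 times the mRNA row in each library and stood at rank 21 of its table. The row MSTRG.19766.1, with the gene ID of rpl37, had 81.9, 72.7 and 93.9 FPKM in HFD livers and 61.9, 98.1 and 91.4 FPKM in NFD livers. The rpl37 row of the mRNA table had 10.1, 3.86 and 24.9 FPKM in HFD livers and 17.0, 7.61 and 6.09 FPKM in NFD livers. After division by the shared level of the steady members both lncRNA rows ranged over 1.23- and 1.22-fold. Levels set across the tables were normalized as each table has them, and the strand setting is not given in the sources used here.

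**Figure D5:**
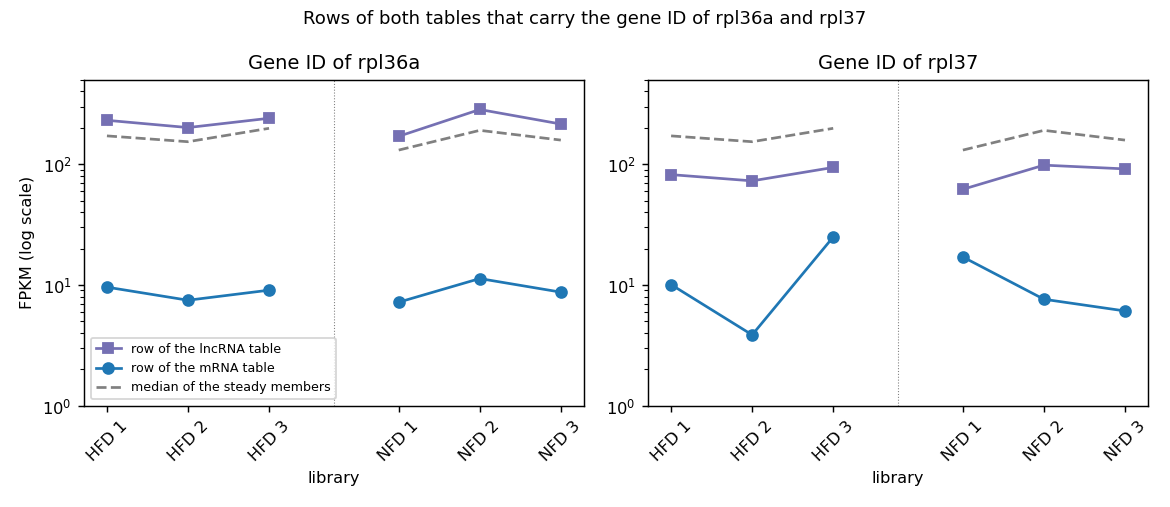
FPKM (log scale) in the 3 HFD and 3 NFD libraries of the lncRNA-table row and the mRNA-table row that carry the gene ID of rpl36a and of rpl37, with the median of the steady members dashed. In every library the lncRNA-table row lies above the mRNA-table row of the same gene ID, by 23.6 to 26.9 times for rpl36a and by 3.64 to 18.8 times for rpl37.

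The other 4 such rows belonged to rpl29, rps26, rpl22l1 and rps27l. The row with the gene ID of rpl29 had 45.3, 83.5 and 56.0 FPKM in HFD livers and 37.8, 117 and 23.8 FPKM in NFD livers. rpl29 itself had 322, 436 and 369 FPKM in HFD livers and 241, 233 and 769 FPKM in NFD livers. The lncRNA row stayed below the mRNA row in every library of these 4 genes. In HFD livers replicate 2 was highest for both rpl29 and its lncRNA row, and in NFD livers replicate 3 was highest for rpl29 and lowest for the row.

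Missing transcript numbers adjoined many members. For all 10 varying members a transcript number directly before or after their own was in neither table. The same held for 43 of 62 steady members, or 69.4%, and for 73.4% of tested genes with a mean of 10 FPKM or more. What those transcripts are was not analysed here. Small RNA rows with Rfam names followed 24 of 75 members, or 32%, within 3 transcript numbers, against 1.79% of tested genes and 5.12% of those with a mean of 10 FPKM or more. In vertebrates many ribosomal protein genes carry small nucleolar RNAs in their introns. The row after rpl24, RF00319, was the highest, with 562, 964 and 860.1 FPKM in HFD livers and 728, 1190 and 432 FPKM in NFD livers. rpl24 itself had 301, 248 and 346 FPKM in HFD livers and 234, 341 and 304 FPKM in NFD livers, so the row exceeded the gene in every library. The first row after RPL7A, RF00069, had 0.826, 1.15 and 0.786 FPKM in HFD livers and 0.472, 0.835 and 0.478 FPKM in NFD livers. In that row the diets overlapped, unlike in RPL7A, but its values lay near the filter limit of 0.5 FPKM. Its relation to the level of RPL7A was not tested.

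Ribosomal proteins with other names were compared. faua, which encodes RPS30 fused to a ubiquitin-like protein, had 309, 252 and 294 FPKM in HFD livers and 220, 292 and 264 FPKM in NFD livers. rack1, a scaffold on the head of the small subunit, had 439, 305 and 396 FPKM in HFD livers and 274, 383 and 350.1 FPKM in NFD livers. Both kept within 1.21- and 1.29-fold after division by the shared level of the steady members.

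Genes that build, regulate or work with ribosomes showed no member past an adjusted limma p of 0.05. In 59 tested mitochondrial ribosomal proteins, which make the separate ribosome of mitochondria, 13 were higher in HFD and 46 lower, with a median of −0.10. Among all tested genes 50.4% were higher in HFD, with a median of 0.00309. The counts of higher and lower genes in this and the other lists were not repeated with libraries left out. Of the 59, 2 had an unadjusted limma p under 0.05, both lower, against 3.35% of all tested genes in that direction. mrps23 had 2.08, 1.95 and 1.42 FPKM in HFD livers and 2.50, 3.85 and 3.97 FPKM in NFD livers, a difference of −0.75 ± 0.23 (log2, SE) with a limma p of 0.0168. mrpl39 had 1.74, 0.655 and 1.18 FPKM in HFD livers and 2.50, 2.24 and 1.95 FPKM in NFD livers, a difference of −0.74 ± 0.27 (log2, SE) with a limma p of 0.0336. In both genes all HFD libraries lay below all NFD libraries, as in 6.15% of all tested genes. The same held for mrpl52, mrps26, MRPL49, mrpl32 and mrps35. In mrpl19 all HFD libraries lay above all NFD libraries, as in 5.48% of all tested genes. mrpl52 had a difference of −0.34 on the log2 scale, with a limma p of 0.0684.

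The remaining lists had no member with an unadjusted p under 0.05. Of 42 tested ribosome assembly factors 18 were higher in HFD and 24 lower, with a median of −0.03, and the smallest p values were those of bop1, ddx21 and sbds. Of 29 translation factors 16 were higher and 13 lower, with a median of 0.02. Of 11 other mRNAs with a pyrimidine-rich start 6 were higher and 5 lower, with a median of 0.09. Of 18 genes of mTOR signalling and ribosome-associated kinases 13 were higher and 5 lower, with a median of 0.18. Beside these counts, 50.4% of all tested genes were higher. rhebl1, a relative of the mTOR activator RHEB, had 7.02, 7.44 and 7.40 FPKM in HFD livers and 4.97, 5.93 and 5.91 FPKM in NFD livers. Every HFD library lay above every NFD library, as in 5.48% of all tested genes, with a difference of 0.36 ± 0.17 (log2, SE) and a limma p of 0.0749.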

How the data were processed

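Liver RNA of 6 libraries, 3 per diet, was analysed. Both deposited tables hold FPKM made by the authors, per the file headers. Tools listed in the submitters' processing notes, without their roles, are HISAT2 2.0.4, StringTie 1.3.0, edgeR 3.22.3, FastQC 0.10.1 and cutadapt 1.10. The genome build is not given in the sources used here, nor is the strand setting, and the sequencing depth is unknown, so no counting interval is given. Ribosomal RNA was removed before library preparation, per the labels' protocols.

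Transcripts were summed per gene ID. The value 0.0001 was read as no estimate and set to 0. Log2(FPKM + 0.5) of all 9204 genes with at least 0.5 FPKM in 3 libraries went into limma 3.58.1 under R 4.3.3 (lmFit, eBayes with trend, two-sided, Benjamini-Hochberg, threshold 0.05), with diet as the only term. Differences are on that scale, so changes of low genes come out too small. A count model was not used because FPKM are not counts. The fit was tested on simulated data. Tables were handled with pandas 2.3.3 and figures drawn with matplotlib 3.10.9.

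The members and all gene lists were chosen with earlier results of these data known. Members named are the 10 highest, the 10 with the smallest p, the varying ones, those nearest the 20-fold limit, duplicates and members at 0; the lists give up to 3 by smallest p, and rps6, rpl24, rpl36a, rpl37, rpl29, rpl11, rpl12, rps7 and RPL27A were chosen after their values were seen. A few of the genes taken by these rules are not reported here, and 1 member is not drawn. Gene names were compared with RefSeq's table for the assembly O_niloticus_UMD_NMBU: 66 of 72 member names were symbols there, and 14 other symbols that meet the name rule were not analysed here. Alternatives covered pseudocounts of 0.1 and 1 FPKM, filters, scaling, the variance prior, the replicate block, summing only own-named transcripts and leaving out libraries. Centring on the steady members and leaving out pairs of libraries were added after seeing the data.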

Additional observations from a re-analysis of the deposited data

How the results depend on the processing

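No member passed the threshold of 0.05 on the adjusted limma p in any of 19 alternatives. The count with an unadjusted p under 0.05, 3 with all libraries, was 2 to 5 when single libraries were left out, and 5 without HFD replicate 3 and NFD replicate 1 together. The median difference of tested members, 0.11, lay between −0.049 and 0.24 when single libraries were left out, and the median of steady members, 0.10, between −0.084 and 0.23. In both, the lowest value came without NFD replicate 1. Without HFD replicate 3 and NFD replicate 1 together the medians were −0.14 and −0.15. Without HFD replicate 2 and NFD replicate 1 together they were 0.08 and 0.08. Centring each library on the steady members brought them to −0.028 and −0.031 by construction, and moved the median of all genes to −0.13. The number of members higher in HFD, 52, was 27 to 57 when single libraries were left out, 28 with that centring, 46 of 67 without HFD replicate 2 and NFD replicate 1, and 14 of 64 without HFD replicate 3 and NFD replicate 1. The difference in share of the summed FPKM, 0.81 percentage points, was −0.20 to 1.56 when single libraries were left out. Pseudocounts, filters, trimmed-mean centring, quantile normalization, the variance prior and own-named transcripts alone left these values on the same side. Of 543 values for 29 named members, 36 changed sign, all without a call, and 14 members never did. Deviations from the diet means correlated across genes at −0.00518, −0.201 and −0.106 for same-numbered libraries, and at −0.134 to 0.204 for the others. Deviations of the 3 libraries of a diet cancel out, so these values cannot show whether libraries were paired. With the replicate block, 0 members passed the threshold and 2 had an unadjusted p under 0.05. With 3 libraries per diet, the spread and the unknown depth limit all these values. No outlier test was made, since groups of 3 are too small for it.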
